A study of Mus musculus with 3 samples.

Results

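The 8 genes described here, Spn, Pou2f2, Ace, Eno3, Adgre1, Adgre4, Adgre5 and Pecam1, are markers used for patrolling monocytes of the mouse. They were listed by name, with earlier results of these data known, and all 8 were found among the 55536 genes listed. The series holds 1 group: total RNA of blood monocytes from adult C57BL/6J mice, 5 to 6 weeks old, in 3 libraries numbered 1, 2 and 3. The labels name no treatment, mutant or monocyte subset, and no group of patrolling monocytes can be set against other monocytes. No source used here gives the gate by which the cells were isolated, the sex was not recorded, and the 3 libraries share a donor record, so the p-values below measure the spread between libraries, part of which may be technical.

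Patrolling monocytes, also called non-classical or Ly6C-low monocytes, crawl along the inner wall of small vessels and clear debris from it. In the mouse they arise largely from classical Ly6C-high monocytes, and their formation depends on the nuclear receptor NR4A1. The 8 genes encode surface proteins of adhesion (Spn, Pecam1), receptors of the adhesion GPCR family with EGF-like repeats outside the cell (Adgre1, Adgre4, Adgre5), enzymes (Ace, Eno3) and a transcription factor (Pou2f2).

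In the mm10 assembly with GENCODE M21, Ace (chr11:105967945-105989964, + strand), Eno3 (chr11:70657202-70662513, + strand) and Pecam1 (chr11:106654217-106750628, - strand) lie on chromosome 11. Spn (chr7:127132232-127137823, - strand) and Pou2f2 (chr7:25087344-25179726, - strand) lie on chromosome 7. Of the adhesion GPCR genes, Adgre1 (chr17:57358691-57483527, + strand) and Adgre4 (chr17:55749984-55853662, + strand) share chromosome 17, while Adgre5 (chr8:83723251-83741326, - strand) is on chromosome 8. Over the 3 libraries the genes gathered between 5055 expected counts for Pecam1 and 136542 for Spn, and each count was a whole number.

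All 8 genes were above 1 TPM in each of the 3 libraries. TPM is a count divided by transcript length and scaled to a fixed total per library, so levels of different genes can be compared on it. In edgeR's quasi-likelihood test of a level of 1 TPM, all 8 were called above it at a Benjamini-Hochberg adjusted p of 0.05, with adjusted p-values between 2.2969e-15 for Spn and 1.2819e-06 for Pou2f2. Of all 17678 genes tested, 43.2% were called above 1 TPM and 6.35% below it, and of the 12996 protein-coding genes among them 54% were above. The geometric mean of the 8 levels was 34.38 TPM in library 1, 30.51 TPM in library 2 and 30.85 TPM in library 3. These are bulk samples, in which fewer cells of a type and less RNA per cell cannot be told apart.

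**Figure D1:**
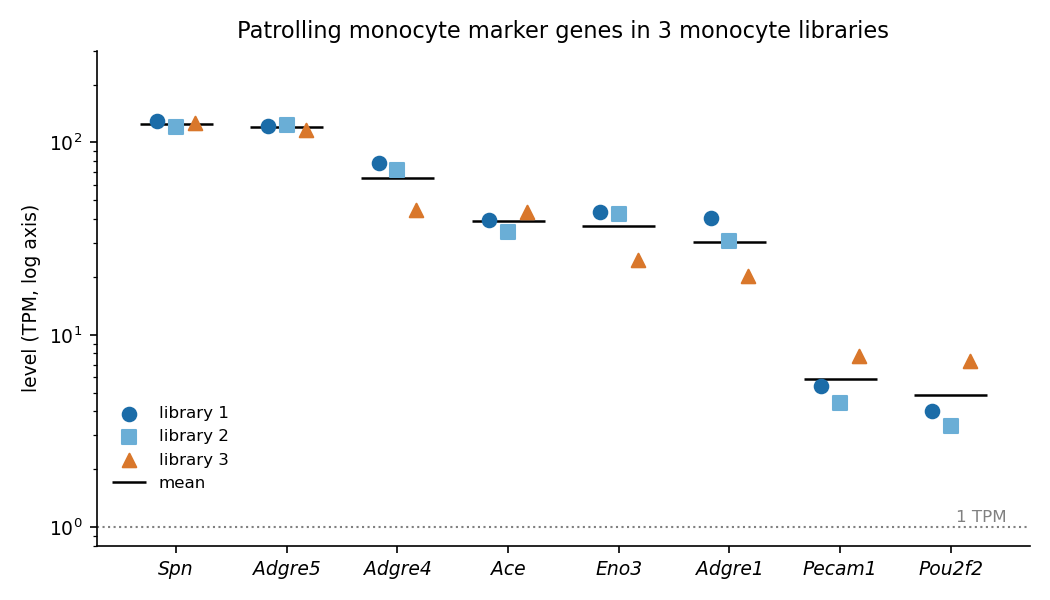
Level of each of the 8 genes in TPM (log axis) in libraries 1, 2 and 3 (points), with the mean of the 3 libraries (bars) and the level of 1 TPM used in the test (dotted line). Spn and Adgre5 lie close together at the top in every library, Pecam1 and Pou2f2 lie lowest, and the triangle of library 3 stands below the other points for Adgre4, Eno3 and Adgre1 and above them for Pecam1 and Pou2f2.

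The adhesion molecules lay far apart in the order. Spn encodes CD43 (leukosialin), a long, heavily glycosylated surface mucin whose high level is used to sort patrolling monocytes. It was listed at 129.44, 119.84 and 125.58 TPM in libraries 1, 2 and 3, a mean of 125.0 ± 4.831 TPM (SD, n = 3), which placed it at rank 101 among protein-coding genes. The 3 libraries lay within a 1.08-fold range, so Spn varied little. Pecam1 encodes CD31, an adhesion receptor of endothelium, platelets and leukocytes that signals through phosphatases bound to its tail. It was listed at 5.4, 4.4 and 7.78 TPM, with a mean of 5.86 ± 1.736 TPM (SD, n = 3), and library 3 was the highest. Spn exceeded Pecam1 in each library, by 23.97-fold, 27.24-fold and 16.14-fold. In the read-based table described further on, the gap was smaller in each library. Spn had 220.1, 191.2 and 219.9 TPM there, and Pecam1 36.6, 23.5 and 16.91 TPM.

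The 3 adhesion GPCRs formed a graded series. Adgre5 encodes CD97, a receptor of many leukocytes that binds CD55. It had 122.48, 123.27 and 116.18 TPM in libraries 1, 2 and 3 (mean 120.6 ± 3.885 TPM, SD, n = 3), and its libraries lay within a 1.061-fold range. Adgre4, which encodes a myeloid receptor related to F4/80, had 78.4, 72.24 and 44.59 TPM (mean 65.08 ± 18.01 TPM, SD, n = 3). Adgre1 encodes F4/80 itself, the surface antigen used to mark mouse macrophages, and had 40.3, 30.8 and 20.1 TPM (mean 30.4 ± 10.11 TPM, SD, n = 3). For both Adgre4 and Adgre1 the lowest library was library 3. The order Adgre5, Adgre4, Adgre1 held in every library: Adgre4 exceeded Adgre1 by 1.945-fold, 2.345-fold and 2.218-fold, and Adgre5 exceeded Adgre1 by 3.039-fold, 4.002-fold and 5.78-fold.

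The enzymes lay in the middle. Ace encodes angiotensin-converting enzyme, a membrane peptidase that makes angiotensin II and degrades bradykinin. It had 39.46, 34.21 and 43.68 TPM in libraries 1, 2 and 3 (mean 39.12 ± 4.744 TPM, SD, n = 3). Eno3 encodes the beta subunit of the glycolytic enzyme enolase, a form best known from skeletal muscle. It had 43.44, 42.37 and 24.37 TPM (mean 36.73 ± 10.71 TPM, SD, n = 3), and library 3 was the lowest. Pou2f2 encodes OCT2, a POU-domain transcription factor best known from B cells. It had 3.99, 3.36 and 7.26 TPM (mean 4.87 ± 2.094 TPM, SD, n = 3), the lowest mean of the 8, and library 3 was the highest.

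In the order of mean levels (Spn, Adgre5, Adgre4, Ace, Eno3, Adgre1, Pecam1, Pou2f2), 3 of the 7 steps separated the ranges of neighbouring genes. Adgre5 lay above Adgre4 by 1.908-fold, Adgre4 above Ace by 1.624-fold and Adgre1 above Pecam1 by 5.13-fold. Adgre4 and Ace were nevertheless almost level within library 3, where they differed by 0.02975 on the log2(TPM) scale. The ranges overlapped for the other pairs: Spn and Adgre5, Ace and Eno3, Eno3 and Adgre1, and Pecam1 and Pou2f2. Eno3 exceeded Ace in libraries 1 and 2 while Ace exceeded Eno3 in library 3. Within each library, Eno3 exceeded Adgre1 and Pecam1 exceeded Pou2f2 in 3 of 3 libraries despite the overlap, by 0.2821 ± 0.176 and 0.3085 ± 0.1823 (mean log2 difference, SD, n = 3). Pecam1 did not keep that order in the read-based table: in library 3 it had 16.91 TPM and Pou2f2 17.9 TPM. The ranges of Adgre1 (from 36.14 TPM) and Pecam1 (up to 36.6 TPM) also overlapped there. Adgre5 exceeded Spn in every library of that table, at 251.1, 237.2 and 255.4 TPM against 220.1, 191.2 and 219.9 TPM. No test was run on these steps; an exact sign-flip test over 3 libraries cannot go below p = 0.25.

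The other genes in use for patrolling monocytes were also present. All 14 of a list of further non-classical markers were called above 1 TPM, with a median level of 45.37 TPM beside 37.92 TPM for the 8 genes. Its highest members were Ear2, an eosinophil-associated ribonuclease, at 269.4 ± 107.2 TPM, and Gngt2, a G-protein gamma subunit, at 156.8 ± 64.1 TPM, and its lowest was Cd300e, an activating receptor, at 17.5 ± 2.95 TPM (SD, n = 3 each). Of 11 classical markers 9 were called above 1 TPM and 1, Vcan (versican), below it at 0.03 ± 0.01732 TPM. The highest of these was Ifitm6 at 43.31 ± 16.27 TPM (SD, n = 3), and the median of the list was 13.07 TPM. Within a library, the mean log2(TPM + 0.1) of the 8 genes exceeded that of the classical list by 2.449 ± 0.03723 and differed from that of the further non-classical list by -0.578 ± 0.07531 (SD, n = 3). Marker lists differ in how they were picked, so these are differences between lists and no estimate of the share of cells of either class.

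**Figure D2:**
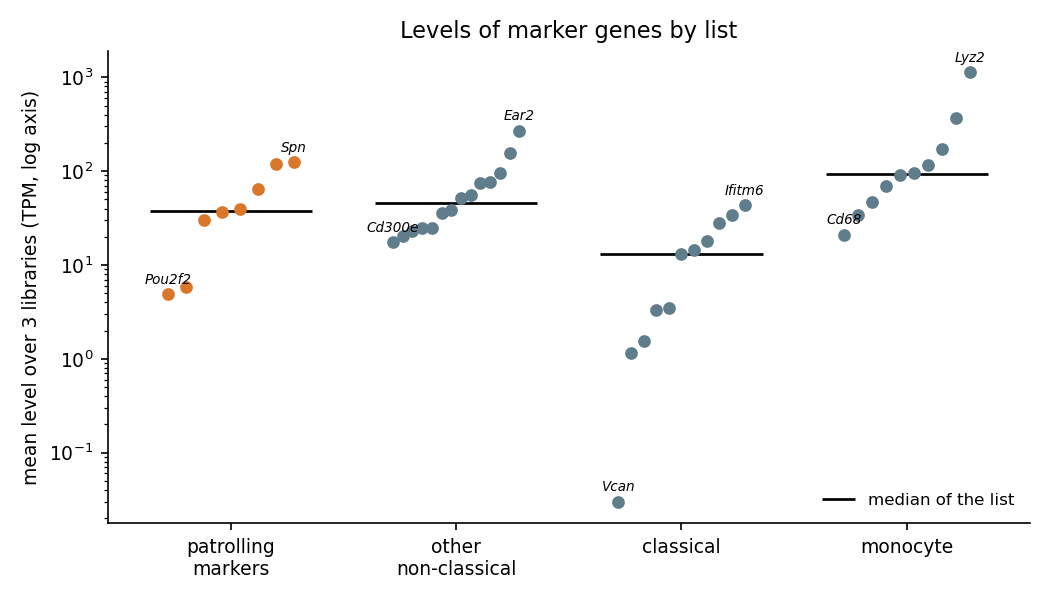
Mean level over 3 libraries in TPM (log axis) of each gene (points) of the 8 patrolling markers, 14 further non-classical markers, 11 classical markers and 10 general monocyte markers, with the median of each list (bars); the lowest and highest gene of each list are named. The medians are 37.92, 45.37, 13.07 and 93.89 TPM, and the classical list reaches down to Vcan at 0.03 TPM.

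Library 3 stood apart from libraries 1 and 2. All 10 general monocyte markers were called above 1 TPM. So were all 10 NK cell markers, 7 of 9 B cell, 4 of 9 T cell, 5 of 8 platelet, 5 of 8 erythroid, 4 of 9 basophil and eosinophil and 2 of 8 neutrophil markers, while Ly6g (neutrophils), Epx (eosinophils) and Klf1 (erythroid cells) had no counts. Of all genes tested 43.2% were called above 1 TPM, and of the protein-coding ones 54%. Tested were 7 of the erythroid, 8 of the basophil and eosinophil and 7 of the neutrophil markers. The T cell, basophil and eosinophil, and neutrophil counts lie near or below these shares. The platelet and erythroid counts lie above them, but the lists are short, and nothing is read from any of these counts. The summed level of 10 NK cell markers was 719, 617.3 and 1729 TPM in libraries 1, 2 and 3, and that of 8 platelet markers 17.86, 12.9 and 103 TPM. Against that, 8 erythroid markers summed to 3535, 3328 and 262.7 TPM, 8 neutrophil markers to 142.1, 128 and 9.62 TPM, and 9 basophil and eosinophil markers to 30.69, 32.53 and 5.1 TPM. The neutrophil sum was mostly Retnlg, at 124.45, 114.09 and 0 TPM, while Csf3r had 5.99, 6.64 and 8.09 TPM. The general monocyte markers themselves summed to 2635, 2231 and 1584 TPM and the further non-classical markers to 1120, 1013 and 766 TPM, both lowest in library 3, and the classical markers to 179.2, 141.4 and 161.4 TPM. The monocyte sum was mostly Lyz2, at 1448.25, 1238.39 and 718.13 TPM, and Ctss, at 496.89, 369.07 and 233.66 TPM. Of the 10 general monocyte markers 5 were higher in library 3 than in library 1, and of the 14 further non-classical markers 5. Against library 2 these counts were 4 and 6. The summed 9 B cell markers stayed between 96.36 and 100.5 TPM, mostly Ighm, at 57.45, 55.74 and 53.1 TPM. Of the 8 others, 5 were higher in library 3 than in library 1 and 4 than in library 2. The 9 T cell markers summed to 27.41, 23.21 and 66.57 TPM. The T cell sum was mostly Lck, at 17.5, 11.48 and 42.46 TPM, and Cd247, at 4.51, 5.71 and 15.11 TPM. The median of the T cell list was 0.81, 0.52 and 1.14 TPM. None of 8 endothelial markers was called above 1 TPM, 5 had no counts, among them Cdh5 (VE-cadherin), and the list summed to at most 4.15 TPM. Total expected counts were 27.2 M, 26.5 M and 19.9 M, and recorded fragment sizes reached 594, 491 and 1000 bp.

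Relative to the median protein-coding gene, which was itself higher in library 3 by 0.2087 than in library 1 and by 0.3704 than in library 2 (difference in log2(TPM + 0.1), 8302 genes with a mean of 1 TPM or more), the 8 genes differed in direction. Adgre1, Adgre4 and Eno3 were lower in library 3: their relative differences were -1.209, -1.021 and -1.04 against library 1, and -0.9837, -1.065 and -1.166 against library 2. Pou2f2 was higher, by 0.6389 and 0.7185, and Pecam1 by 0.3101 and 0.4379. The read-based table described further on also placed library 3 lowest for Adgre1, Adgre4 and Eno3 and highest for Pou2f2, but lowest for Pecam1. Ace lay at -0.06244 and -0.01876, Spn at -0.2523 and -0.303, and Adgre5 at -0.2848 and -0.4558. On this relative scale Adgre4 and Eno3, 2 of the 8, were at least 2-fold lower than in both other libraries, against 2.99% of protein-coding genes. None of the 8 was 2-fold higher than in both, against 3.42%. In TPM as listed, the highest library exceeded the lowest by 1.758-fold for Adgre4 and 1.783-fold for Eno3. With a single library on one side, these differences have no replicate check.

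In the gene table, the genes that were lower in library 3 moved with the summed basophil and eosinophil, neutrophil and erythroid markers. Pecam1 and Pou2f2 moved with the NK cell and platelet markers there, but in the read-based table Pecam1 was lowest in library 3. The sums of the general monocyte and further non-classical markers were also lower in library 3, but part of the genes of both lists were higher there. Among the eosinophil and basophil markers, Ccr3, an eotaxin receptor, had 12.43, 11.61 and 0.17 TPM in libraries 1, 2 and 3. Of the platelet markers, Ppbp, a chemokine, had 2.17, 2.47 and 33.72 TPM. Mouse eosinophils carry F4/80, platelets carry CD31 and B cells use OCT2, as background. The part of these cells in the levels of Adgre1, Pecam1 and Pou2f2 was not tested. For Pecam1, the endothelial markers Cdh5, Tek, Emcn, Cldn5 and Ptprb were at 0 counts in every library, which allows at most 0.03209 TPM for any of them (3 counts in a library). Of the other 3 endothelial markers, Kdr had 1 count in all. Vwf, also made by megakaryocytes, had 1.04, 0.6 and 3.82 TPM and Esam 0, 0.01 and 0.33 TPM. Both were highest in library 3, as Pecam1 was in the gene table but not in the read-based one. Over the 8 genes, the median SD between libraries was 0.4243 on the log2(TPM + 0.1) scale, beside 0.3485 for protein-coding genes.

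**Figure D3:**
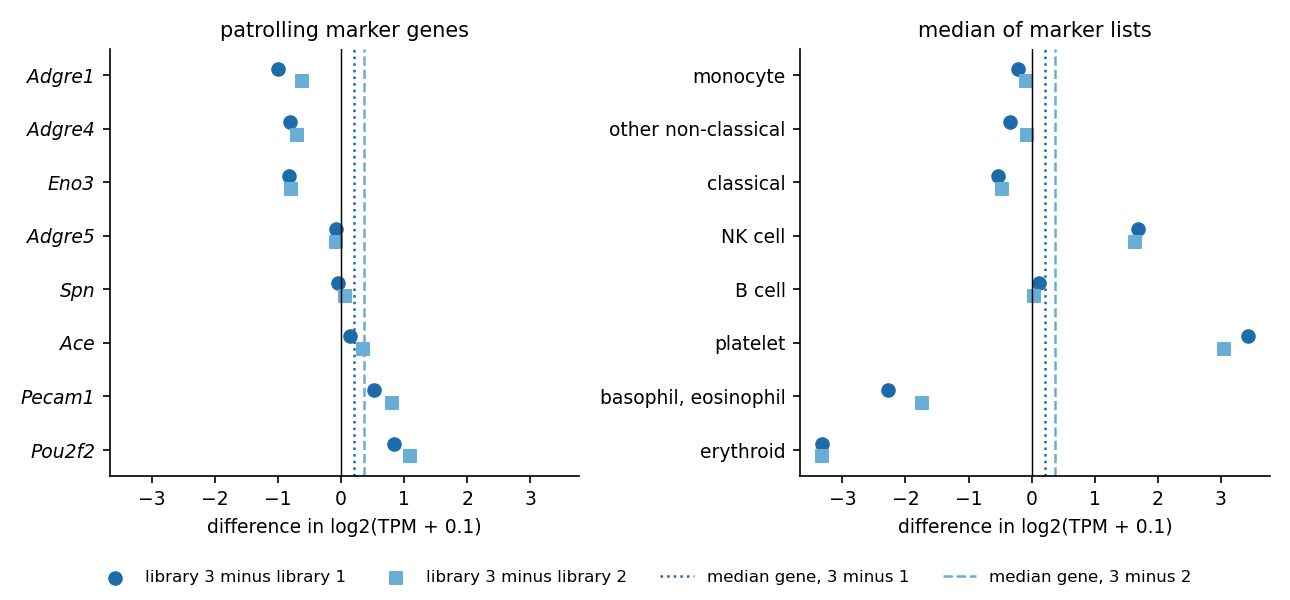
Difference in log2(TPM + 0.1) of library 3 from library 1 (circles) and from library 2 (squares) for each of the 8 genes (left) and for the median gene of 8 marker lists (right); dotted and dashed lines mark the median protein-coding gene, at 0.2087 and 0.3704. Adgre1, Adgre4 and Eno3 lie left of 0 in both comparisons, Pecam1 and Pou2f2 right of the lines, while the erythroid list lies at -3.329 and -3.331 and the platelet list at 3.438 and 3.049.

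The profile most like the mean of the 8 genes was shared with many others. After each gene's log2(TPM + 0.1) was centred over the 3 libraries, the closest protein-coding genes with a mean of at least 10 TPM included Bzw1, Myo1f, Galnt1 and Cdkn1b, at root mean square distances of 0.00415 to 0.00859. Of 2070 such genes, 336 lay within 0.1 of the profile. Of the 8 genes themselves, Spn at 0.04609 and Adgre5 at 0.0743 lay within that distance, and Pou2f2 was the farthest at 0.4904. With 3 libraries this likeness rests on 3 points per gene, and the genes differ among themselves more than the nearest outsiders do from their mean.

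Reads were also assigned to transcripts, in a table made from alignments and in a further one made from the reads, called the alignment-based and the read-based table here. Ace, Eno3 and Adgre5 have annotated transcripts that differ in start or exon content, and the stretches that tell them apart are shown first. For the starts of Ace, Eno3 and Adgre4, the 250 bases before the start that RefSeq lists are given (GRCm38.p6, + strand): the somatic Ace start at chr11:105967698-105967947, the inner Ace start at chr11:105974939-105975188, the upstream Eno3 start at chr11:70656926-70657175 and Adgre4 at chr17:55749734-55749983. Capitals mark matches to 7 short motifs searched on both strands, which were picked after these sequences had been seen; a match on the other strand appears as its reverse complement.
Ace somatic start: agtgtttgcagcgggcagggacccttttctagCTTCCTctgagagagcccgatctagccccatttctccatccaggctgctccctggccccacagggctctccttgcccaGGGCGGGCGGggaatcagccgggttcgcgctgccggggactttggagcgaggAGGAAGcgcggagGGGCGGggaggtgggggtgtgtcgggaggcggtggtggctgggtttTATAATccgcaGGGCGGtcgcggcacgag
Ace inner start: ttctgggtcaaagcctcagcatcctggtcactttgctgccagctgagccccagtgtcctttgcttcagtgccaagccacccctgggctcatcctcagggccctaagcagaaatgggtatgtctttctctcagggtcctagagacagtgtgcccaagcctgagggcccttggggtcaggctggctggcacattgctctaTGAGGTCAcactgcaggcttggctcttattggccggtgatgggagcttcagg
Eno3 upstream start: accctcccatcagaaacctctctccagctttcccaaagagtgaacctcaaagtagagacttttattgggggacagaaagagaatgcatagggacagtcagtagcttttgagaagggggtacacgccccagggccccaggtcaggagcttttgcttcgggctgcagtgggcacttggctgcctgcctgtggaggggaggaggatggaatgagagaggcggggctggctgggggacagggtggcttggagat
Adgre4: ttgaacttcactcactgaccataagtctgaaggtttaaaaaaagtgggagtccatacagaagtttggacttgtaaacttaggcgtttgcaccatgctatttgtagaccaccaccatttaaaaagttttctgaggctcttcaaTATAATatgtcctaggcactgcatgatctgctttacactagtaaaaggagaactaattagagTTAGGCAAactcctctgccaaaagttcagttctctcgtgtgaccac

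The motifs searched included the GC box, GGGCGG, to which SP factors bind, and the KLF element, CCCCACCC, of the related KLF factors. The ETS core was AGGAAG, the motif of PU.1 and its relatives, and the C/EBP element was TTGCNNAA. A TATA-like box was searched as TATAAT. The CRE-like element was TGAGGTCA and the NR4A element AAAGGTCA, which is known for binding NR4A1. The somatic Ace window held 4 GC boxes, at -140, -136, -75 and -18 counted from the start, of which the first pair overlap, a TATA-like box at -29 and ETS cores at -218 and -88. The inner Ace window, which precedes the start known from testis, held 1 match, a CRE-like element at -52. The Adgre4 window held a TATA-like box at -108 and a C/EBP element at -46, and the Eno3 window none of the 7. In the windows of Spn and Pou2f2, not printed here, Spn had an ETS core at -22 and a KLF element at -67, and Pou2f2 had GC boxes at -105 and -40. Such letters are common: of 32851 promoter windows of the same length, 32.74% held the GC box, 29.48% the ETS core, 9.564% the C/EBP element, 9.053% the KLF element, 7.087% the TATA-like box, 1.936% the CRE-like element and 1.336% the NR4A element, which none of the 6 windows searched held. A match is a description of the letters, not a measured binding site.

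Most Ace signal was assigned to the somatic form. The transcript of the somatic start, Ace-201, which encodes both catalytic domains, had 23.46, 20.42 and 27.64 TPM in libraries 1, 2 and 3. That was 60.8 ± 2.134% of Ace (SD, n = 3) in the alignment-based table and 69.18 ± 1.121% in the read-based one. The transcript of the inner start, Ace-202, begins 7263 bases downstream and encodes the single-domain enzyme known from developing sperm. It was assigned 8.53, 8.38 and 5.59 TPM, or 21.62%, 24.5% and 12.79% of Ace, against 11.09%, 11.62% and 10.79% in the read-based table. Only 196 of its bases belong to no other Ace transcript. Library 3 was its lowest in the alignment-based table and its highest in the read-based one (6.938, 5.799 and 8.23 TPM), so no difference between libraries holds for it. Ace-203, which starts between them, had 7.47, 5.41 and 10.46 TPM.

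Most of the other genes listed for the Ace pathway were not detected. Of 10 further genes of the angiotensin and kinin system only Lnpep, a widely expressed aminopeptidase also known as the angiotensin IV receptor, was called above 1 TPM, at 13.47 ± 4.045 TPM (SD, n = 3). Of the protein-coding genes tested 54% were called above 1 TPM, and 21432 of all 55536 genes listed had counts in a library. Agt, Ren1, Agtr1b, Agtr2, Bdkrb1, Bdkrb2 and Mme had no counts in any library, which allows at most 0.05436 TPM for any of them. Agtr1a, an angiotensin II receptor named after its values were seen, had 15 counts in library 1 and 0 in both others.

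The transcripts of Eno3 differed between libraries in the same way in both tables. Transcripts of the upstream start (Eno3-201, Eno3-202 and Eno3-205) had 17.14, 21.52 and 17.41 TPM in libraries 1, 2 and 3, so their level in library 3 lay inside the range of the others. The downstream start, 594 bases along, gives Eno3-206, which had 24.92, 20.31 and 5.71 TPM. Its share of Eno3 was 57.37%, 47.95% and 23.43%, and the read-based values were 60.11%, 44.45% and 26.44%. Both tables thus placed the lower Eno3 level of library 3 in the transcript of the downstream start. Eno3-201 and Eno3-206 have the same coding length of 1302 bases. Eno3-206 has 76 bases that Eno3-201 lacks, and lacks 69 bases of it. All 76 are also part of Eno3-202, which begins at the upstream start and was listed at 0, 0 and 1.05 TPM, so the division rests on short stretches.

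Among the enolases, Eno1, the form of most tissues, had 30.19, 22.51 and 36.21 TPM, and Eno1b 11.71, 9.69 and 6.88 TPM. Eno3 was higher than Eno1 by 1.439-fold and 1.882-fold in libraries 1 and 2, and its ratio to Eno1 was 0.673 in library 3. Eno2, the neuronal form, and Eno4 had no counts, which allows at most 0.03902 TPM. Counts of Eno1 and Eno1b were divided between these close copies by the quantification, so the split between them is uncertain, while the Eno3 counts were whole.

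**Figure D4:**
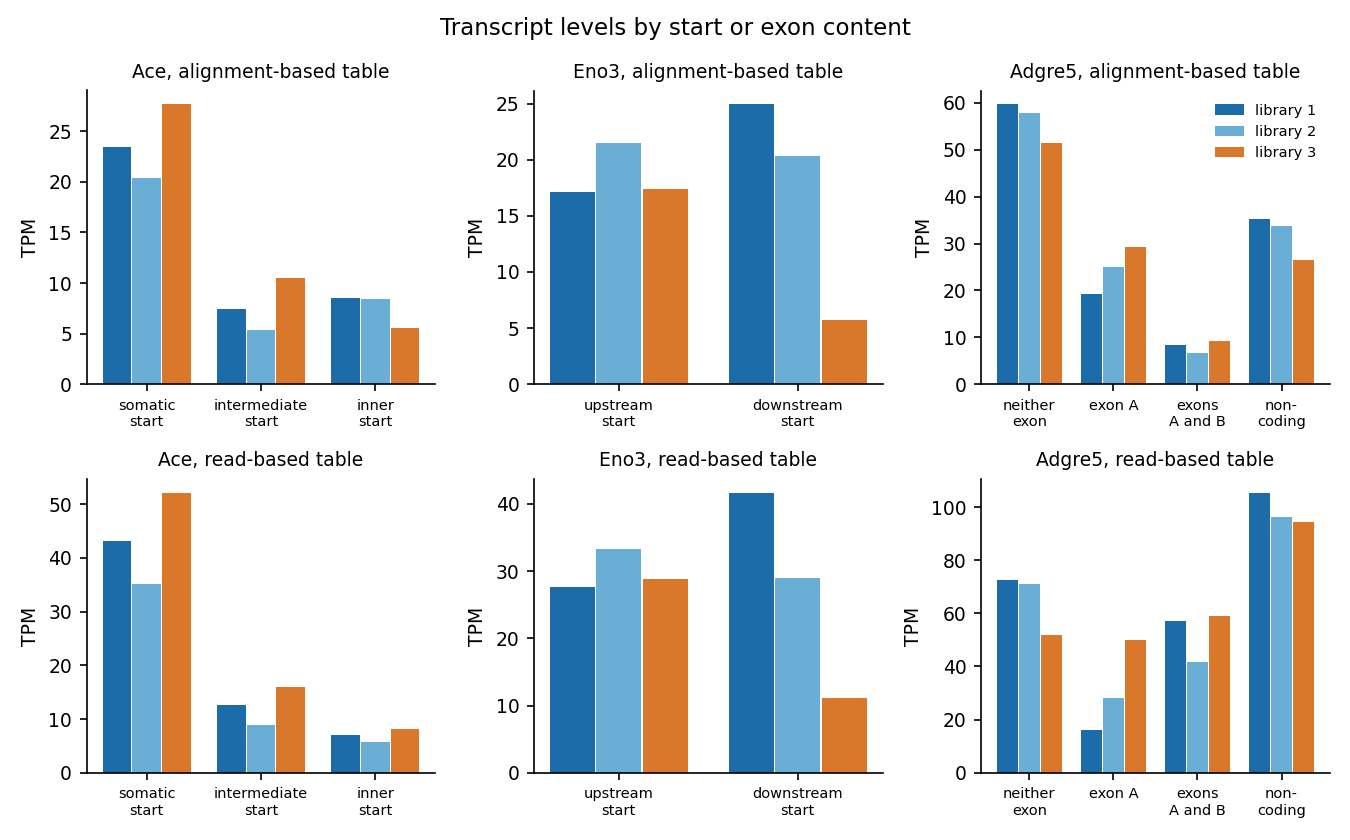
Level in TPM of transcript groups of Ace, Eno3 and Adgre5 in libraries 1, 2 and 3 (bars), in the alignment-based table (top) and the read-based table (bottom), whose scales differ. The bar of library 3 for the Eno3 downstream start is the lowest of its group in both tables (5.71 and 11.14 TPM), the Ace somatic start leads in both, and the Adgre5 groups change order between the tables.

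CD97, the product of Adgre5, is known to vary in its number of EGF-like repeats by splicing. A pair of cassette exons tells its full-length transcripts apart, and both are wholly coding (GENCODE M21, mm10, - strand). Exon A, at chr8:83730111-83730257, has 49 codons, of which 6 in frame are cysteine codons, given in capitals; an EGF-like repeat is held together by disulphide bonds between its cysteines. Exon B, at chr8:83731903-83732037, has 45 codons and no cysteine codon in frame.
Adgre5 exon A: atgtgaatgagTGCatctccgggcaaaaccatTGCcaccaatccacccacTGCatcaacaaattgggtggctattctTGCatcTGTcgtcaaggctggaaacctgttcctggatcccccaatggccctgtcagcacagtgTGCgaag
Adgre5 exon B: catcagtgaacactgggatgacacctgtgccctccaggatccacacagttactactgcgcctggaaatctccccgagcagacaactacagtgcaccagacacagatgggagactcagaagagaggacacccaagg

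Full-length transcripts without either exon led in the alignment-based table, at 59.64, 57.91 and 51.45 TPM in libraries 1, 2 and 3, or 46.65 ± 2.223% of Adgre5 (SD, n = 3). The transcript with exon A alone had 19.21, 24.96 and 29.18 TPM, or 20.35 ± 4.721%, and the one with both exons 8.45, 6.63 and 9.14 TPM, or 6.715 ± 1.255%. In the read-based table the same groups held 26.39 ± 5.241%, 12.64 ± 6.607% and 21.18 ± 3.065%. The tables disagree on whether the form with both exons is the rarest or exceeds the one with exon A alone, so these data give no order of the exon-containing forms. In both tables the share of the form with exon A alone was highest in library 3. Noncoding transcripts and 1 marked for nonsense-mediated decay took 26.28 ± 3.147% and, in the read-based table, 39.79 ± 2.606%. The largest of these in the alignment-based table, the retained-intron transcript Adgre5-204, had 25.17, 23.24 and 16.04 TPM.

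**Figure D5:**
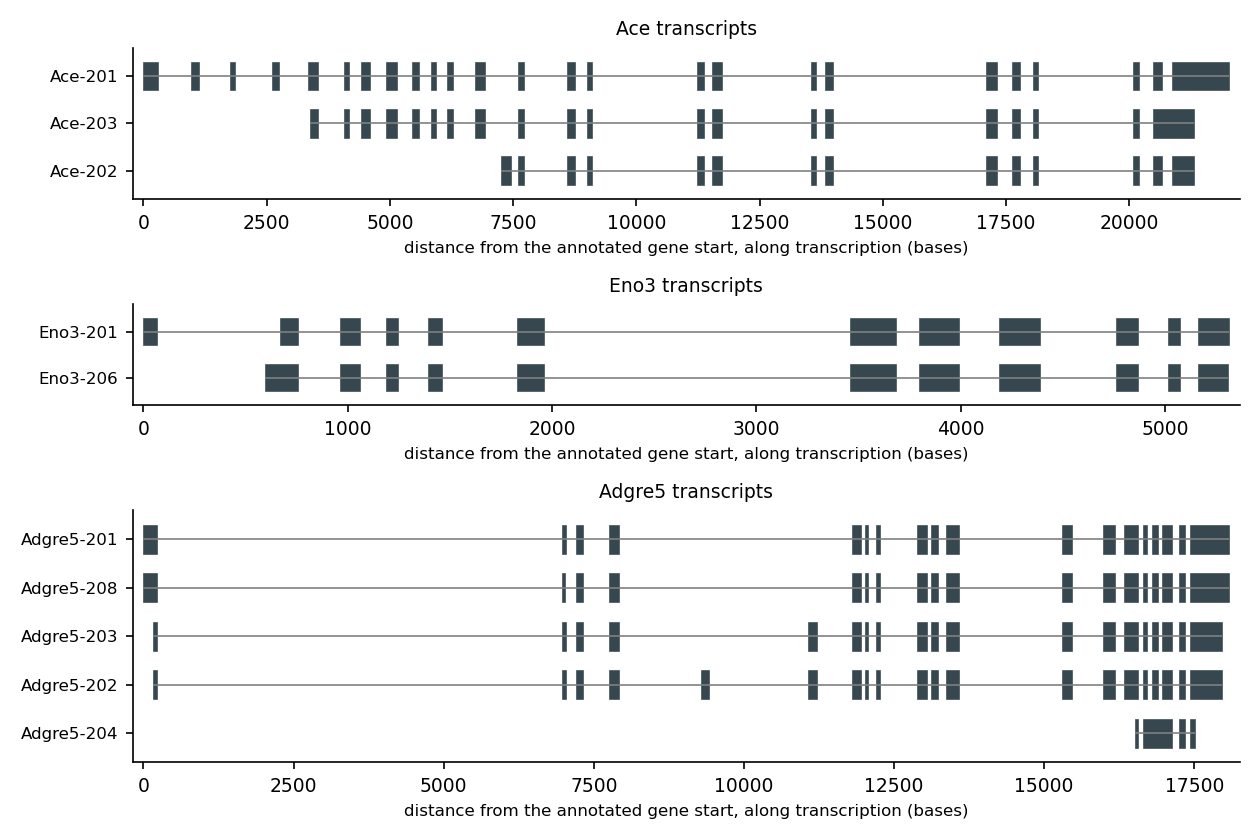
Exons (boxes) of the main annotated transcripts of Ace, Eno3 and Adgre5, drawn to scale by distance in bases from the annotated start of the gene in the direction of transcription. Ace-202 begins 7263 bases and Eno3-206 594 bases downstream, and Adgre5-203 and Adgre5-202 carry 1 and 2 extra exons beside Adgre5-201.

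Genes for known binding partners of CD97 lay below the receptor itself. Of 6 genes for binding partners 4 were called above 1 TPM, beside 54% of the protein-coding genes tested, and nothing is read from this count. Itgb1, the integrin beta-1 chain, had 80.74 ± 4.135 TPM and Itgav, the integrin alpha-V chain, 13.62 ± 3.508 TPM, and the lowest, Cd55b, had 0.01 ± 0.01732 TPM (SD, n = 3 each). Cd55, the classical ligand, named after its values were seen, had 8.07, 8.16 and 9.63 TPM. Exons of Adgre5 share 895 of 3757 bases with Ddx39, which lies on the opposite strand and had 8.09, 4.86 and 6.21 TPM. Whether the counting used the strand is not stated by any source used here. Expected counts were whole for both genes, at 29271, 32449 and 19814 for Adgre5 and 1381, 1381 and 834 for Ddx39. The gene table thus divided no shared reads between them. Which gene the reads of the shared stretch were given to was not tested. For Ace, the antisense gene Gm11651 shares 295 of 5287 exon bases and had at most 4 counts in a library.

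The isoforms of Pecam1 rested on 1612 to 1754 expected counts per library. In its coding transcripts the annotation differs by a 57-base exon of 19 codons (chr11:106671742-106671798, - strand, mm10), part of the region that encodes the cytoplasmic tail, shown because its inclusion could be compared between libraries.
Pecam1 exon: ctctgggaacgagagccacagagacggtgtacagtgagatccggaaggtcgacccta
Transcripts with this exon had 4.82, 2.74 and 5.21 TPM in libraries 1, 2 and 3, against 0, 1.25 and 1.69 TPM for the transcript without it. The read-based table gave 7.563, 3.679 and 9.467 TPM with it and 0, 2.959 and 2.999 TPM without it. Transcripts with the exon were thus higher in every library of both tables, and the form without it was listed at 0 in library 1 of both.

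Of the 8 genes, Pecam1 was the one whose level depended most on the table. Its retained-intron transcript Pecam1-208, a single exon, had 0.2, 0.4 and 0.88 TPM in the alignment-based table and 29.04, 16.86 and 4.449 TPM in the read-based one. The summed Pecam1 level was 36.6, 23.5 and 16.91 TPM there, 4.381 times the level in the gene table on average, beside a median ratio of 1.918 over 8298 protein-coding genes; 99.22% of these had a lower ratio. Library 3 was the highest for Pecam1 in the gene table and the lowest in the read-based table, so the direction of its difference in library 3 depends on the table. The other 7 genes had ratios between 1.602 for Eno3 and 2.372 for Pou2f2.

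Of the partners of PECAM1, the phosphatase genes Ptpn6 (SHP-1) and Ptpn11 (SHP-2), whose products bind its tail, had 158.2 ± 36.85 and 7.593 ± 1.457 TPM (SD, n = 3 each). Of the 6 partner genes matched 3 were called above 1 TPM, near the 54% of protein-coding genes tested, and nothing is read from this count. Cdh5 had no counts. For Spn, 7 of 8 genes for its cytoskeletal linkers, other adhesion molecules and glycosylating enzymes were called above 1 TPM, beside the same 54%. Msn (moesin), which ties the tail of CD43 to actin, had 71.06 ± 19.47 TPM and Ezr (ezrin) 43.07 ± 2.092 TPM (SD, n = 3 each), and Gcnt4, a glycosyltransferase, had no counts. The Spn level itself was nearly all 1 transcript: Spn-201 held 98.0 ± 0.3751% of it (SD, n = 3).

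Pou2f2 exceeded its widely expressed relative Pou2f1 (OCT1), which had 1.23, 1.75 and 2.35 TPM, by 3.244-fold, 1.92-fold and 3.089-fold in libraries 1, 2 and 3. Pou2f3 had no counts, which allows at most 0.01753 TPM. Pou2af1, the B cell coactivator of OCT1 and OCT2, had 3.31, 4.36 and 4.41 TPM. The B cell marker Ighm, the heavy chain of IgM, was present at 55.43 ± 2.192 TPM and Cd79b, part of the B cell receptor, at 12.03 ± 1.538 TPM (SD, n = 3 each); their part in the Pou2f2 level was not tested. Within Pou2f2, the leading transcript Pou2f2-209 held 53.38%, 30.95% and 58.6% of the level, and Pou2f2-203, which shares its start, led in library 2 with 43.15%. In Adgre1, Adgre1-202 led with 84.07 ± 8.356%, and Adgre4 has a single annotated transcript.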

How the data were processed

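Members and lists were chosen with earlier results of these data known. Per the labels' protocols, stranded libraries were made from 100 ng of monocyte RNA after removal of ribosomal RNA. The authors' deposited gene tables (mm10, GENCODE M21, and again M4) give expected counts and TPM per gene; TPM is scaled over every row, small RNAs included. Deposited transcript tables give the same units, and a further one made from the reads gives estimated counts and TPM. No source used here names the quantification program. Expected counts of the 8 genes were whole numbers, with a deposited SD of 0.0 for each. Symbols matched for 55450 of 55536 genes. Rows naming no gene held at most 0.000571% of counts.

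Rounded expected counts entered an intercept-only glmQLFit (edgeR 4.0.16, R 4.3.3), with the count that 1 TPM stands for as offset, so that the two-sided quasi-likelihood F test, computed from the deviances, is of a level of 1 TPM. Tested were genes whose summed count reached 10 and whose effective length was above 0 (3471 genes had 0 in a library), with Benjamini-Hochberg adjustment. For 1000 bases, 1 TPM stood for 112.374, 121.426 and 76.0175 counts in libraries 1, 2 and 3. Limits for 0 counts (3 counts) cover counting error only. Tested on simulated data (16137 genes), the fit called 4.4% of 500 genes at 1 TPM, 91% of 100 at 4 TPM and 27% of 100 at 0.25 TPM. Alternatives were leaving out each library, M4, TPM over protein-coding genes alone, no filter, TMM or DESeq2 size factors, limma 3.58.1 with a pseudocount of 0.1 or 1, DESeq2 1.42.0 and the read-based table. Named by rule are the 8 genes and, of other lists described gene by gene, the 2 highest, the lowest and those without counts, with lists of up to 4 in full; Agtr1a, Cd55 and Kdr were added after their values were seen. Some genes that this rule names are not reported here.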

Additional observations from a re-analysis of the deposited data

How the results depend on the processing

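All 8 genes stayed above 1 TPM under each of the 11 alternatives, and all 88 single-gene tests kept their call, with a highest adjusted p of 0.000951. Without 1 library, edgeR called 7237 to 7556 genes above 1 TPM (7636 with all 3) and 251 to 1085 below (1123 with all 3): 251 without library 1 and 381 without library 2. With TPM over protein-coding genes alone, 12091 genes were above and 1 below. limma called 6304 genes below with a pseudocount of 0.1 and 6751 with 1; DESeq2 called 6035 above and 0 below, with 885 below at an unadjusted p under 0.05 and no adjusted p given for 9254 genes. The causes of these shifts in counts were not tested, except that the protein-coding scale raises every level by construction. On that scale the means were 1192 TPM for Spn, 46.18 for Pou2f2, 372.5 for Ace, 352.1 for Eno3, 290.1 for Adgre1, 623.1 for Adgre4, 1154 for Adgre5 and 55.63 for Pecam1. In the read-based table they were 210.4 TPM for Spn, 11.55 for Pou2f2, 62.9 for Ace, 58.85 for Eno3, 51.82 for Adgre1, 105.9 for Adgre4, 247.9 for Adgre5 and 25.67 for Pecam1. The leading transcript's share there was 90.82% for Spn-201, 69.18% for Ace-201, 19.7% for Adgre5-201 and 7.054% for Pecam1-202. Leaving out a library moved the mean of Pou2f2 between 3.675 and 5.625 TPM, of Pecam1 between 4.9 and 6.59 TPM, of Adgre1 between 25.45 and 35.55 TPM, and the share of Pecam1-202 between 20.97% and 33.57%. No paired analysis between conditions was possible because the series holds a single group, and within-library differences between genes were not tested. With 3 libraries, 1 of which stands apart, no exact test can pass 0.05.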
